A study of Mus musculus with 45 samples.

Results

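The clustered protocadherin genes were followed across the brains of wild-type and Shank3-mutant mice. The members were the genes of the deposited expression table whose mouse symbols name an alpha (Pcdha1 to Pcdha12, Pcdhac1, Pcdhac2), beta (Pcdhb) or gamma (Pcdhga, Pcdhgb, Pcdhgc) protocadherin. They were chosen by name and not by any measured value, and 57 of the 18135 genes of the table qualified: 14 of the alpha cluster, 21 of the beta cluster and 22 of the gamma cluster. The annotation lists 58, and Pcdhb1 was not analysed here. All 57 reached a mean of 10 normalized counts in every region, the lowest regional mean being 21.1 for Pcdha8 in the hippocampus.

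Clustered protocadherins are cell surface adhesion proteins that bind the same isoform on a neighbouring cell, and single neurons switch on only some of the alternative genes, so that cells differ in their surface identity. The proteins take part in the self-avoidance of dendrites and axons, in axon tiling, in the survival of neurons and in the formation of synapses. In the alpha and gamma clusters each gene supplies its own large first exon, which carries the extracellular and transmembrane parts, and all members of the cluster splice to the same constant exons for the intracellular part. Beta genes have no constant exons. The last genes of the alpha and gamma clusters, Pcdhac1, Pcdhac2, Pcdhgc3, Pcdhgc4 and Pcdhgc5, are known as C types and are used by most neurons rather than picked cell by cell.

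All members lie on the plus strand of chromosome 18. In GRCm38 with the GENCODE M21 annotation the 14 alpha genes span bases 36930184 to 37187661, the 21 beta genes 37294812 to 37524479 and the 22 gamma genes 37661793 to 37841873. Bases shared with other members, which are mostly the 3 constant exons, made up 48.6 to 54.9% of the longest coding transcript of an alpha gene and 41.7 to 66.8% of that of a gamma gene, against 0 to 9.67% in the beta cluster. Reads from shared exons fit every member of a cluster and had to be divided among them by the authors' quantification, so values of single alpha and gamma genes are uncertain to that extent. The library kit kept the strand, but the strand setting of the quantification was not given in the sources used here.

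RNA was sequenced from the prefrontal cortex, hippocampus and striatum of 13-week-old male mice, with 5 samples for each of 3 genotypes in each of 3 regions, 45 samples in all. The genotypes were wild-type (WT), heterozygous (Shank3-HT) and homozygous (Shank3-HM) for a deletion of exons 14 to 16 of Shank3, which encodes a scaffold protein of excitatory synapses. All mice were of the C57BL/6J strain, and the labels give no other allele and no treatment. Which samples came from one mouse was not given, and p-values measure the spread between samples of a group. Values are counts after the authors' normalization, so the depth of the libraries is unknown and no counting intervals can be given. Normalized totals ran from 26118607 to 29568983 per sample.

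The genotype labels were first set against Shank3 itself. Its 5 WT samples held 6985 to 8717 normalized counts in the cortex, 7566 to 8468 in the hippocampus and 11309 to 12739.8 in the striatum, and the Shank3-HM samples 3689 to 4446, 3678 to 4019.6 and 4569 to 6242, without overlap. On the log2 scale Shank3 fell by 0.98, 1.06 and 1.11 in Shank3-HM mice (limma adjusted p = 4.76e-07, 1.19e-10 and 3.70e-07). Its differences in Shank3-HT mice were -0.38, -0.43 and -0.50, of which that of the cortex did not pass the test (adjusted p = 0.288, 2.19e-04 and 0.0494). The striatal markers set 1 cortex sample apart. The summed striatal markers (Drd1, Drd2, Ppp1r1b, Adora2a, Rgs9) came to 20438 in Shank3-HM replicate 2 of the cortex against 2066 to 2800.1 in the other 4 Shank3-HM cortex samples. Libraries numbered 1 also stood apart: 239 of 16708 genes were the lowest or the highest of their 5 replicates in library 1 in at least 8 of the 9 groups, against 2 to 6 genes for each of the other numbers. Pcdhgc3 and Pcdhgc4 were among those 239.

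Apart from Pcdhac1, the C-type genes had the highest levels of the 3 clusters in the WT cortex. Per kilobase of the longest coding transcript, the mean WT level of the 5 C types ran from 46.6 to 925 normalized counts in the cortex. The other 12 alpha genes ran from 5.84 to 121, the 21 beta genes from 12.2 to 95.1 and the other 19 gamma genes from 11.7 to 179 on the same scale. Pcdhac1 was the lower end of the C types.

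Pcdhgc5, Pcdhgc4 and Pcdhgc3 led in every region. In the WT cortex they stood at 925, 912 and 691 normalized counts per kilobase. The same genes held 749.6, 825 and 718 in the hippocampus, and striatal levels were 824, 851 and 821. Pcdhac2, which is needed for the even spread of serotonergic axons, followed with 392 in the cortex and 302 in the hippocampus. In the striatum Pcdhga6 came next at 329.7, and Pcdhgb6 (266) and Pcdhga7 (254) also lay above Pcdhac2 there. Pcdha8 in the hippocampus was the lowest at 4.17. The 5 C types together took up 51.6% ± 1.05 (SD, n = 5) of all clustered protocadherin counts in the WT cortex, 49.6% ± 3.65 in the WT hippocampus and 41.0% ± 1.71 in the WT striatum. The shares in the cortex (50.5 to 53.2%) did not overlap those in the striatum (39.8 to 43.8%).

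Members within a cluster differed in how tightly their replicates agreed. In the WT cortex the coefficient of variation over 5 samples had a median of 15.5% in the alpha cluster, 11.2% in the beta cluster and 11.2% in the gamma cluster. Pcdhac2 was the tightest alpha gene at 2.87% and Pcdha8 the loosest at 48.1%. Pcdha8 was measured at 32.6, 5.01, 40.5, 40.7 and 37.0 normalized counts in the 5 WT cortex samples, the widest spread of all members there. Other members spread most in some other groups, such as Pcdha1 at 56.2% in the Shank3-HT striatum.

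The first question was whether the brain regions of WT mice use the clusters differently. The alpha cluster was highest in the cortex, and the gamma cluster and, less evenly, the beta cluster were highest in the striatum. Summed over its 14 members, the alpha cluster came to 5211 to 5469 normalized counts in the WT cortex, 3556 to 4422 in the hippocampus and 3216 to 3642 in the striatum. The cortex did not overlap either other region, and the hippocampus and striatum overlapped. The 22 gamma genes summed to 19155 to 20033 in the cortex, 17932 to 19871 in the hippocampus and 23153 to 27033 in the striatum, where every sample lay above all samples of the other regions. The 21 beta genes summed to 3428 to 3758, 2919 to 3461 and 4076 to 4850.2 in the same order. These sums are given as a description, with no test.

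**Figure D1:**
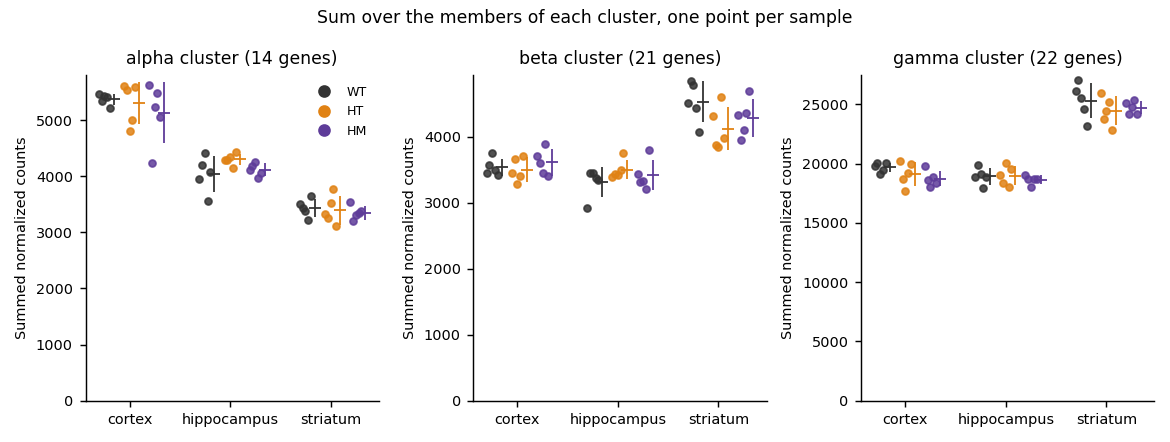
Summed normalized counts (vertical axis, from 0) of the alpha, beta and gamma clusters in each region, with 1 point per sample coloured by genotype (WT, Shank3-HT as HT, Shank3-HM as HM) and the mean ± SD of the 5 samples beside the points. The WT alpha sums fall from 5211 to 5469 in the cortex to 3216 to 3642 in the striatum, while the WT gamma sums rise from 19155 to 20033 to 23153 to 27033.

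The excess of gamma counts in the striatum lay in the gamma A and gamma B genes. Their summed mean was 7479.6 ± 232 (SD, n = 5) in the WT cortex, 7845 ± 1012 in the WT hippocampus and 13249 ± 1261 in the WT striatum, a ratio of striatum to cortex of 1.77. The 3 gamma C types summed to 12209 ± 369, 11067 ± 985 and 12033 ± 459.7, a ratio of 0.99. In the alpha cluster the sums of both kinds of gene were higher in the cortex than in the striatum. The ratios of cortex to striatum were 1.53 for the 12 alternative genes and 1.61 for Pcdhac1 and Pcdhac2. These ratios were not tested, and of the alternative genes Pcdha4 and Pcdha8 had no call between WT regions.

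Gene by gene, the comparison of WT cortex with WT striatum called 39 of 57 members at an adjusted p under 0.05, against 59.3% of all 16708 genes tested. The share of members was thus near that of all genes, and the direction differed by cluster. Of the 14 alpha genes 10 were higher in the cortex and 0 were lower. Of the 22 gamma genes 16 were lower in the cortex and 0 were higher. Of the 21 beta genes 2 were higher and 11 lower. With the 3 genotypes averaged, the beta cluster had 6 higher and 12 lower and the gamma cluster 2 higher and 17 lower. With only the groups compared in the fit, the gamma cluster had 1 higher and 17 lower. Over all genes 29.3% were higher in the cortex and 30% lower. The median log2 difference, striatum minus cortex, was -0.65 in the alpha cluster, 0.37 in the beta cluster and 0.65 in the gamma cluster, and that of all genes, cortex minus striatum, was -0.01.

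Between hippocampus and striatum 36 of 57 members were called, against 56.1% of all genes. The alpha cluster had 6 genes higher in the hippocampus and 0 lower, and the gamma cluster 13 lower and 0 higher. In the beta cluster 4 were higher and 13 lower. Under quantile normalization the alpha cluster had 5 higher and 1 lower and the beta cluster 1 higher and 14 lower. The alpha count was also 5 and 1 with only the groups compared in the fit, and 7 and 2 with the 3 genotypes averaged, where the gamma cluster had 2 higher and 15 lower. Over all genes 28.3% were higher in the hippocampus and 27.8% lower.

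Between cortex and hippocampus the fit called 23 of 57 members, against 46.6% of all genes, with 23.3% in each direction. The alpha cluster again moved one way, with 8 of 14 genes higher in the cortex and 0 lower. In the beta cluster 6 were higher in the cortex and 3 lower, and in the gamma cluster 2 were higher and 4 lower. With the 3 genotypes averaged, 14 gamma genes were called, 4 higher and 10 lower, and in Shank3-HM mice without cortex replicate 2 the fit called 10, 1 higher and 9 lower.

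**Figure D2:**
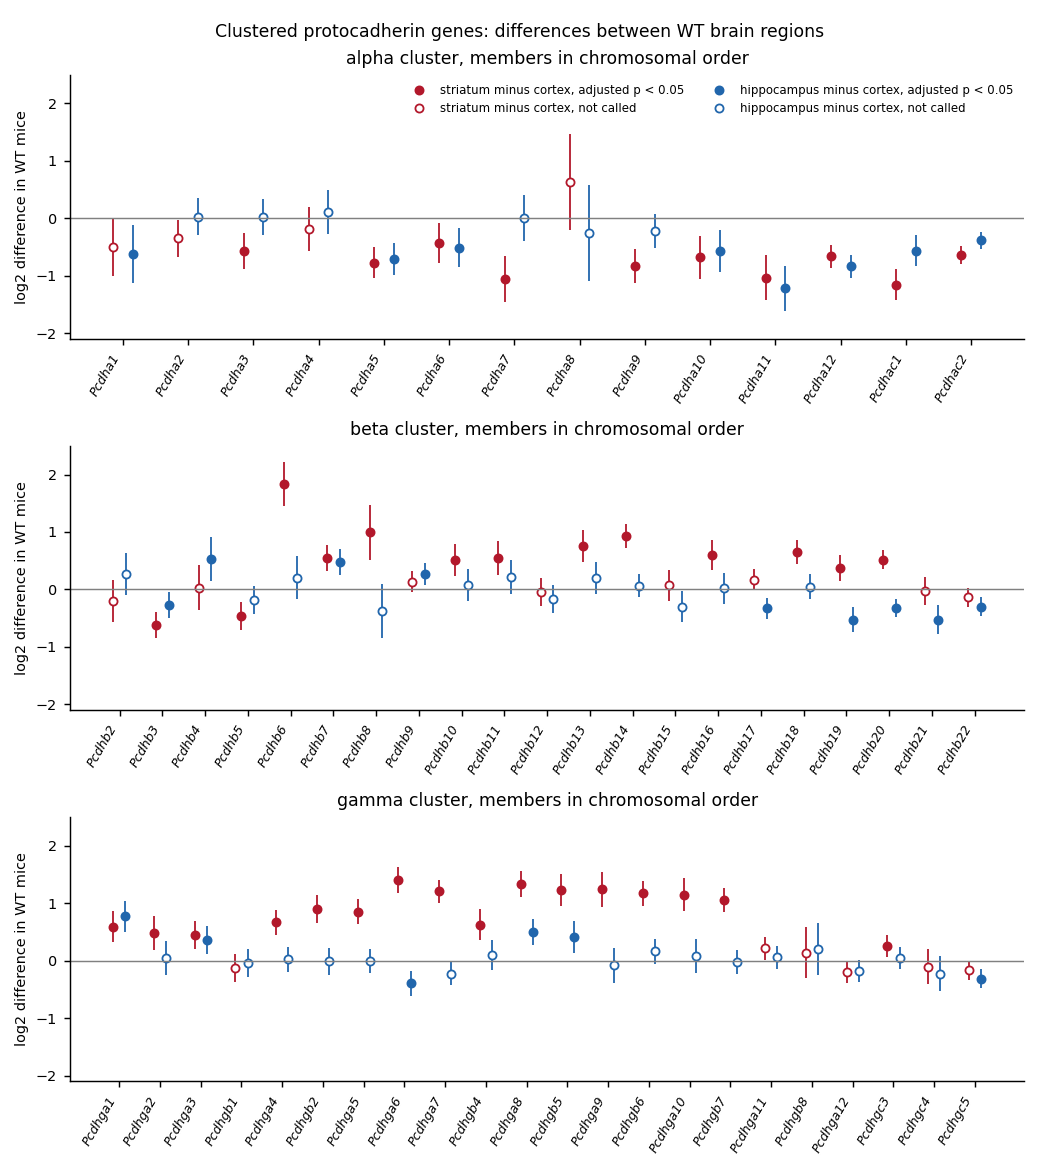
Log2 differences in WT mice (vertical axis) of striatum minus cortex and hippocampus minus cortex for each member, in chromosomal order along the horizontal axis, with 95% confidence intervals from the limma fit; filled points passed an adjusted p of 0.05. Alpha genes lie mostly below 0 with a median of -0.65 for striatum minus cortex, and a stretch of gamma genes from Pcdhga4 to Pcdhgb7 lies above 0 with a median of 1.16.

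Among the alpha genes, Pcdhac1 and Pcdhac2 were graded across the 3 regions, with all 3 comparisons called. Pcdhac1 was measured at 215, 268, 311, 239.6 and 229 normalized counts in the WT cortex, at 162, 176, 185, 172 and 150.3 in the hippocampus and at 119, 93.0, 92.2, 127 and 132 in the striatum. No sample of one region overlapped another. Its log2 difference, cortex minus striatum, was 1.16 ± 0.13 (SE, adjusted p = 4.54e-10). Pcdhac2 was measured at 2410.1, 2336, 2292, 2235 and 2279 in the cortex, at 1561, 1876, 2128, 1563 and 1764 in the hippocampus and at 1556, 1538, 1448, 1344 and 1533 in the striatum. Its regions were also separate in every sample, though the lowest hippocampus sample lay close to the highest striatum sample. For Pcdhac2 the difference between cortex and striatum was 0.64 ± 0.08 (adjusted p = 1.08e-09). Separate WT samples were common over all genes. They were found in 46.3% between cortex and striatum, 38.5% between hippocampus and striatum and 32% between cortex and hippocampus.

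Pcdha12, the highest of the alternative alpha genes per kilobase in the cortex, was higher in the cortex than in both other regions. It stood at 674, 599.9, 582, 710.3 and 669.8 in the WT cortex, at 316, 380.0, 413, 352 and 347 in the hippocampus and at 377, 418, 415, 398 and 433 in the striatum. Its cortex samples lay above all 10 others, with differences of 0.84 ± 0.10 to the hippocampus (adjusted p = 2.07e-09) and 0.66 ± 0.10 to the striatum (adjusted p = 2.28e-07). The hippocampus and striatum did not pass the test against each other (log2 difference -0.18, 95% interval -0.38 to 0.02).

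Pcdha11 was likewise higher in the cortex than in the hippocampus, by 1.22 ± 0.19 (adjusted p = 1.17e-06), and than in the striatum, by 1.04 ± 0.19 (adjusted p = 1.21e-05). Its 5 WT cortex samples held 167, 267, 219.8, 269.6 and 172 normalized counts, those of the hippocampus 106, 109, 101, 92.8 and 59.5, and those of the striatum 81.6, 80.9, 126, 118 and 123. The cortex samples lay above the other 10 and the hippocampus and striatum overlapped. GENCODE gives the symbol Pcdha11 to 2 genes, and the one that starts where RefSeq places Pcdha10 is called Pcdha10 here. Pcdha5, Pcdha6 and Pcdha10 had the same pattern of calls as Pcdha11 and Pcdha12.

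Pcdha7, Pcdha3 and Pcdha9 were instead lower in the striatum than in both other regions, with no call between cortex and hippocampus. Pcdha7 was measured at 184, 188, 158, 193 and 150.3 in the WT cortex, 158, 194, 182, 158 and 184 in the hippocampus and 78.5, 57.2, 87.2, 91.3 and 108 in the striatum. The cortex and hippocampus samples overlapped and the striatum lay below all of them. The difference between hippocampus and striatum was 1.07 ± 0.20 (adjusted p = 1.08e-05). Pcdha4 and Pcdha8 had no call in any WT region comparison. Pcdha1 was higher in the cortex than in the hippocampus (0.62 ± 0.25, adjusted p = 0.0392) with overlapping samples.

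The beta cluster held both patterns, and they were set apart along the chromosome. None of the first 4 genes of the table (Pcdhb2 to Pcdhb5) was called higher in the striatum than in both other regions, and their median log2 difference, striatum minus cortex, was -0.33. Of the next 15 (Pcdhb6 to Pcdhb20), 10 were higher in the striatum than in both, with a median of 0.55. The last pair, Pcdhb21 and Pcdhb22, had none. This split was made after the values were seen and carries no test.

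Pcdhb6 had the widest difference of the beta cluster. It held 49.2, 59.2, 53.7, 58.5 and 50.5 normalized counts in the WT cortex, 59.3, 78.3, 63.8, 60.1 and 52.7 in the hippocampus and 168, 276, 181, 181 and 189 in the striatum. Every striatum sample was above every other sample, and cortex and hippocampus overlapped. The mean in the striatum was 3.67 times that in the cortex (log2 difference 1.84 ± 0.19, adjusted p = 1.81e-11). Of all genes, 22.9% lay higher in the striatum than in the cortex without overlap, and 19.1% higher than in the hippocampus.

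Pcdhb14 and Pcdhb20 had the smallest adjusted p beside Pcdhb6 and lay higher in the striatum too. Pcdhb14 was at 186, 231, 217, 219 and 213 in the WT cortex and at 412, 427, 427, 373 and 391 in the striatum, without overlap, a log2 difference of 0.93 ± 0.10 (adjusted p = 1.77e-10). For Pcdhb20 the order was striatum (315 to 444), cortex (257 to 299) and hippocampus (202 to 229), with no overlap between neighbours and all 3 comparisons called. Its log2 difference, striatum minus hippocampus, was 0.84 ± 0.08 (adjusted p = 4.02e-12).

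Pcdhb17, Pcdhb22 and Pcdhb19 held the most WT counts of the cluster before any correction for length. Pcdhb17 was lower in the hippocampus (307 to 388) than in the cortex (423 to 476) or striatum (450.2 to 527), and the last 2 regions overlapped. Pcdhb22 was higher in the cortex (369.6 to 420.0) than in the hippocampus (271 to 352), by 0.30 ± 0.08 on the log2 scale (adjusted p = 0.00255), and no other comparison of it was called. Pcdhb19 had a log2 difference, cortex minus hippocampus, of 0.52 ± 0.11 (adjusted p = 1.26e-04), and Pcdhb21 one of 0.52 ± 0.12 (adjusted p = 4.50e-04). Pcdhb7 went the other way and was lower in the cortex (125 to 162) than in the hippocampus (159 to 238) and striatum (194 to 234).

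A few beta genes ran against the cluster. Pcdhb3 fell from the cortex (114 to 158) through the hippocampus (108 to 123) to the striatum (77.4 to 109), with all 3 comparisons called, as did the alpha C types. Pcdhb4 was highest in the hippocampus, at 53.8 to 70.9 against 25.4 to 58.2 in the cortex and 36.5 to 55.8 in the striatum. Pcdhb2 was called only between hippocampus and striatum (0.46 ± 0.18, adjusted p = 0.0280).

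In the gamma cluster 12 neighbouring genes, from Pcdhga4 to Pcdhgb7, were each higher in the striatum than in both other regions. Their log2 differences, striatum minus cortex, ran from 0.62 to 1.40 with a median of 1.16, and striatum minus hippocampus from 0.52 to 1.80 with a median of 0.96. Hippocampus minus cortex had a median of 0.01 in the same 12 but ran from -0.39 to 0.50, so single genes differed in both directions. The 7 other gamma A and B genes, which lie on both sides of that stretch, had a median of 0.22 for striatum minus cortex and of -0.03 for striatum minus hippocampus. The stretch was picked out after the WT values were seen, so this is a description. Pcdhga2 was the only gamma gene outside it that was also called higher in the striatum than in both other regions, at 322 to 437, 288 to 559 and 439 to 619.9 in cortex, hippocampus and striatum. All 12 share the constant exons with the 7 flanking genes and with the 3 C types.

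Pcdhga6 and Pcdhga7 had the widest differences of the stretch between striatum and hippocampus. Pcdhga6 was measured at 536, 670.0, 579, 592 and 543 normalized counts in the WT cortex, at 359, 480.1, 485, 501 and 409 in the hippocampus and at 1817, 1692, 1619, 1537 and 1139 in the striatum. The striatum was separate from the others by a wide gap, and the cortex lay above the hippocampus in every sample. The lowest striatum value was that of replicate 5, which also had the lowest WT sum of striatal markers, at 76663 against 96510 to 102006. Without this sample 12 of 12 genes of the stretch were called against both other regions. Their medians were 1.23 to the cortex and 0.998 to the hippocampus. The stretch was chosen by its calls in these WT samples, so this count is a description and no further support. For Pcdhga6 the striatal mean was 3.49 times that of the hippocampus, a log2 difference of 1.80 ± 0.11 (adjusted p = 2.91e-18). The difference of Pcdhga6 to the cortex was 1.40 ± 0.11 (adjusted p = 7.95e-15).

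Pcdhga7 was measured at 510.1, 545, 493, 477 and 552 in the cortex, at 371, 519, 411, 477 and 440.3 in the hippocampus and at 1382, 1343, 1164, 1189 and 936 in the striatum. Its log2 difference, striatum minus cortex, was 1.21 ± 0.10 (adjusted p = 2.83e-14), and cortex and hippocampus did not pass against each other. Pcdhga8 rose in steps from cortex (272 to 414) to hippocampus (439 to 535) to striatum (772 to 1042), none of which overlapped. Pcdhgb7 was at 296 to 359, 276 to 363 and 589.9 to 732 in the same order, with a difference of 1.08 ± 0.10 between striatum and hippocampus (adjusted p = 5.52e-12). Pcdhgb4 had the smallest difference of the stretch. It was at 194 to 329.9 in the striatum, where its lowest sample lay within the range of the cortex (139 to 196), with a log2 difference to the cortex of 0.62 ± 0.13 (adjusted p = 8.91e-05).

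**Figure D3:**
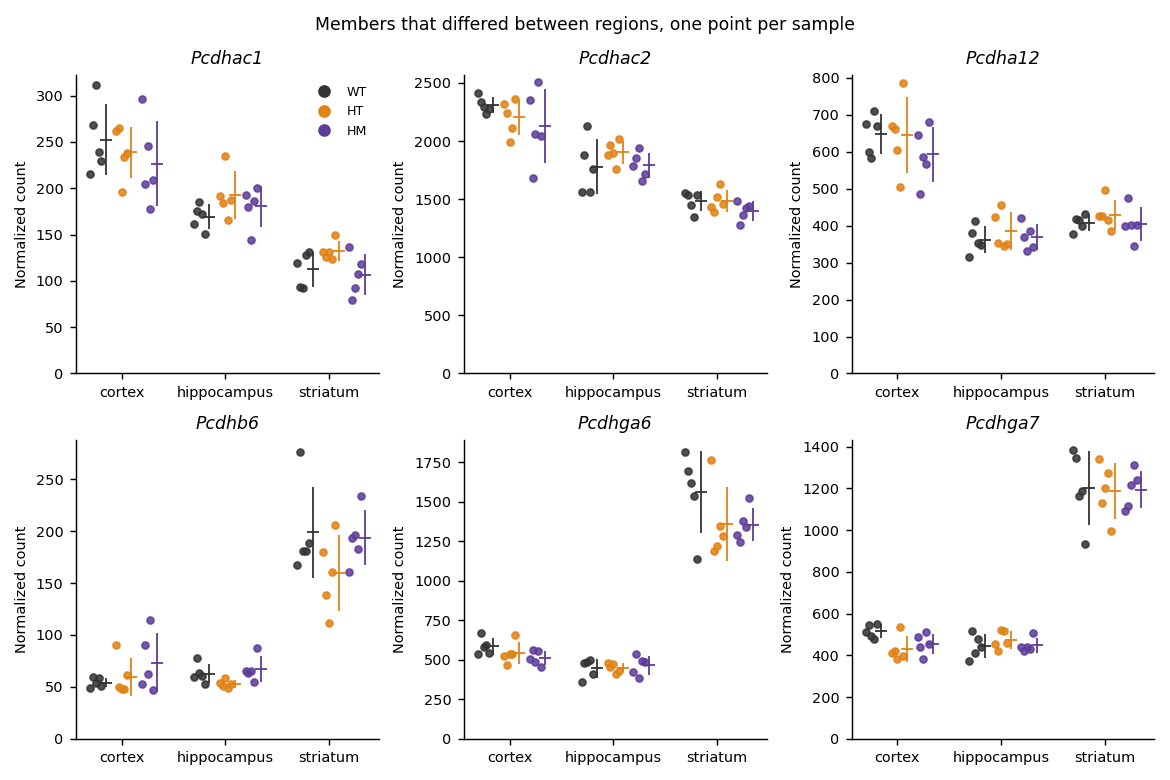
Normalized counts (vertical axes, from 0) of Pcdhac1, Pcdhac2, Pcdha12, Pcdhb6, Pcdhga6 and Pcdhga7 in each region, with 1 point per sample coloured by genotype and the mean ± SD of the 5 samples beside the points. The alpha genes are highest in the cortex (Pcdhac2 at 2235 to 2410.1 in WT), and Pcdhga6 is highest in the striatum (1139 to 1817 in WT).

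At the start of the gamma cluster, Pcdhga1 and Pcdhga3 had another pattern and were lower in the cortex than in both other regions. Pcdhga1 was at 123 to 213 in the WT cortex, 228 to 352 in the hippocampus and 222 to 278 in the striatum, with a log2 difference, hippocampus minus cortex, of 0.77 ± 0.13 (adjusted p = 5.03e-06). Its cortex samples lay below the other 10. Pcdhgb1, Pcdhga11, Pcdhgb8 and Pcdhga12 were called in no region comparison. Pcdhgb8, the lowest gamma gene, had WT values of at most 66.9, 78.8 and 66.2 in cortex, hippocampus and striatum.

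The gamma C types, among them Pcdhgc4, which is needed for the survival of inhibitory neurons, differed little between regions. Pcdhgc5 was measured at 4561, 4484, 4262, 4129 and 4499 in the WT cortex, 2903, 3718, 3917, 3431 and 3799.7 in the hippocampus and 4002, 4057, 3892, 3744 and 3847 in the striatum. Its cortex samples lay above all others, and cortex minus hippocampus was 0.31 ± 0.08 (adjusted p = 0.00132). The call to the striatum was missed (0.17, 95% interval 0.00 to 0.33, adjusted p = 0.0720). Pcdhgc3, which restrains Wnt signalling through Axin1, was lower in the cortex than in the striatum by 0.25 ± 0.10 (adjusted p = 0.0226), with overlapping samples, and without replicate 1 of the cortex this call was lost (adjusted p = 0.107).

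Pcdhgc4 had no call between WT regions, and here a single library decided the result. Its 5 WT hippocampus samples stood at 7302, 3682, 3281, 3037 and 3424 normalized counts, the first being replicate 1, against 4194 to 5089 in the cortex and 3699.8 to 4608 in the striatum. With it the difference, cortex minus hippocampus, was 0.23 ± 0.15 (adjusted p = 0.220). Without it the difference was 0.45 (adjusted p = 0.00184), and hippocampus minus striatum became -0.35 (adjusted p = 0.0127). The same library had the lowest WT hippocampus values of Pcdhgc3 (2472) and Pcdhgc5 (2903).

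Library number moved with 2 of these genes in all regions and genotypes. The library numbered 1 was the lowest of its 5 replicates for Pcdhgc3 in 9 of 9 groups and the highest for Pcdhgc4 in 8 of 9. For Pcdhgc3 in the WT striatum, for example, it held 3381 against 3829.8 to 4112 in the other 4. The labels do not say what the number stands for. With all libraries numbered 1 left out, which was tried after these values were seen, 23, 41 and 34 members were called between cortex and hippocampus, cortex and striatum, and hippocampus and striatum, and 20, 39 and 33 of the calls above were among them.

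**Figure D4:**
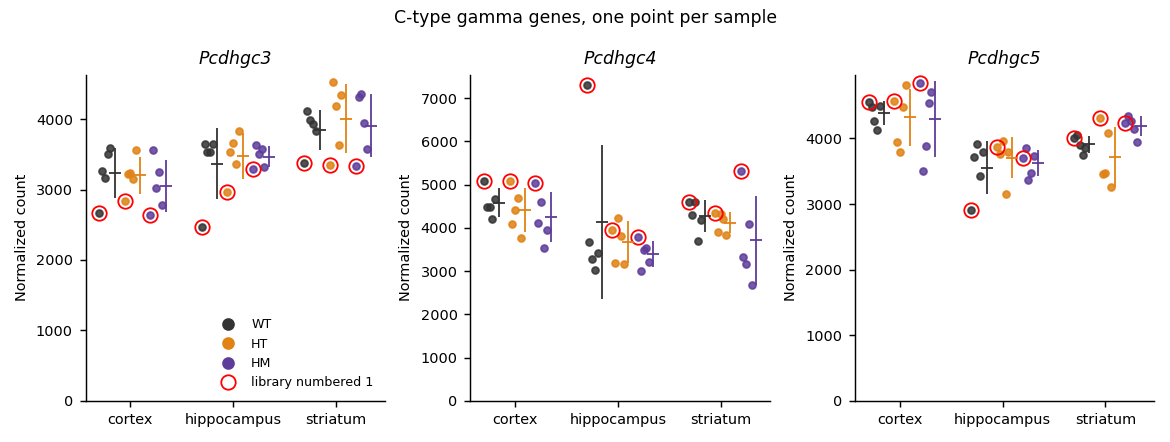
Normalized counts (vertical axes, from 0) of Pcdhgc3, Pcdhgc4 and Pcdhgc5 by region and genotype, with 1 point per sample, the library numbered 1 of each group ringed in red, and the mean ± SD of the 5 samples beside the points. The ringed library is the lowest of its group for Pcdhgc3 in 9 of 9 groups and reaches 7302 for Pcdhgc4 in the WT hippocampus.

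The same region comparisons were then made in the Shank3-HT and Shank3-HM mice, which are other animals than the WT mice. Of the 39 members called between WT cortex and striatum, 35 were called in the same direction in Shank3-HT mice and 39 in Shank3-HM mice. In these the fit called 43 and 42 members, against 58.6% and 57.4% of all genes. Between hippocampus and striatum 31 and 33 of the 36 WT calls were found again with the same sign, where 53.6% and 54.8% of all genes were called. Between cortex and hippocampus it was 17 of 23 in both, where 45% and 42.2% of all genes were called.

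The 12 gamma genes from Pcdhga4 to Pcdhgb7, picked out in the WT mice, were all higher in the striatum than in the cortex in both mutant genotypes, 12 of 12 in each, with medians of 1.11 in Shank3-HT and 1.08 in Shank3-HM. They were also higher than in the hippocampus in 12 of 12 in each, with medians of 0.79 and 0.86. All genes were called higher in the striatum than in the cortex in 29.5% and 28.8% of cases and higher than in the hippocampus in 26.4% and 26.7%. In the alpha cluster 11 of 14 genes were higher in the cortex than in the striatum in each mutant genotype and 0 were lower. In Shank3-HT mice the beta cluster had 5 genes higher in the cortex than in the striatum and 9 lower. Between hippocampus and striatum it also had 5 higher and 9 lower there, with a median of -0.09 against -0.42 in WT mice. The gamma cluster of Shank3-HT mice had 2 genes higher in the cortex and 16 lower, and 2 higher in the hippocampus and 12 lower, against the striatum. In Shank3-HM mice the beta counts were 3 higher and 11 lower, and 4 higher and 11 lower, and the gamma counts 0 and 17, and 0 and 13, in the same order. Without Shank3-HM replicate 2 of the cortex, the sample with striatal markers, an alternative chosen after seeing the data, 12 of 12 genes of the gamma stretch stayed called against the cortex, with a median of 1.12, and 10 alpha genes were higher and 0 lower, while the whole gamma cluster had 1 higher and 18 lower.

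These are bulk tissues, and fewer cells of a type and less RNA per cell cannot be told apart. Markers of some cell types differed between the regions too. The oligodendrocyte markers Mbp, Mog, Mag and Mobp, which encode myelin proteins, were each higher in the WT striatum than in the cortex. Mbp stood at 89132 to 114023 normalized counts in the striatum, 32126 to 41706 in the cortex and 69053 to 74879 in the hippocampus. Of the 6 neuron markers 4 were higher in the cortex and 2, Gad1 and Gad2, in the striatum. All 5 astrocyte markers were lower in the striatum than in the cortex, and 2 of 5 microglia markers were higher. Of 5 endothelial markers 0 were higher in the striatum and 1 was lower. Over all genes 29.3% were higher in the WT cortex than in the striatum and 30% lower. The microglia and endothelial counts were near those shares. The 5 choroid plexus markers summed to 3072 to 122680 in the WT hippocampus against 76.2 to 156 in the cortex and 462 to 1502 in the striatum, and of these Folr1 in the cortex and Kcnj13 in the striatum were at 0 in at least 1 WT sample. The part of these cells in the protocadherin differences was not tested.

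The second question was whether loss of Shank3 changed the clustered protocadherins. No member was called in any of the 9 genotype comparisons, which together made 513 tests of members, and the smallest adjusted p was 0.537. At an unadjusted p under 0.05 there were 17. Shank3-HT and Shank3-HM mice were compared with the same WT samples. Log2 differences of members ran from -0.49 to 0.59. The 95% interval of the difference lay within 1 in either direction in 510 of the 513 tests, the exceptions being Pcdha8 in the 3 comparisons of the cortex, and within 0.5 in 406. A change of 2-fold or more is therefore outside the interval for 56 of the 57 members in every comparison, and smaller ones were not detectable for many.

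**Figure D5:**
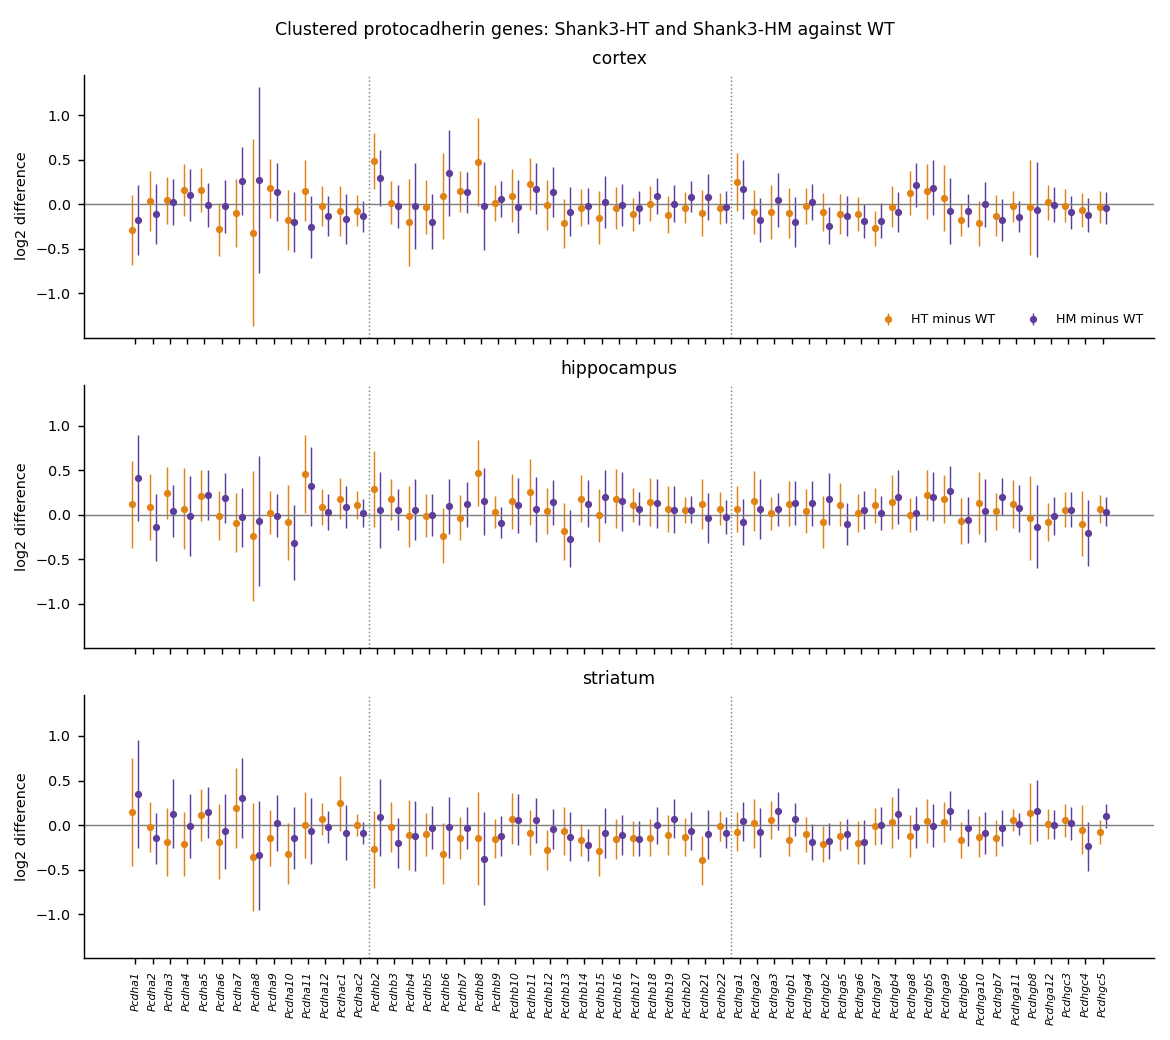
Log2 differences (vertical axes) of Shank3-HT minus WT and Shank3-HM minus WT for the 57 members, in chromosomal order with the alpha, beta and gamma clusters divided by dotted lines, in each region; bars are 95% confidence intervals from the limma fit. No member passed an adjusted p of 0.05, and only bars of Pcdha8 in the cortex reach beyond 1 in either direction.

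In the cortex 0 of 57 members were called between Shank3-HT and WT, as were 0% of all genes, and 2 members had an unadjusted p under 0.05, against 2.68% of all genes. Pcdhb2 was the nearest. It was measured at 40.8, 44.7, 37.6, 49.0 and 48.6 normalized counts in WT and at 56.4, 55.9, 68.7, 67.6 and 62.4 in Shank3-HT mice, which did not overlap (log2 difference 0.49 ± 0.15, limma unadjusted p = 0.00459). The Shank3-HM samples of Pcdhb2, at 41.2 to 64.0, overlapped both groups. Pcdhb8 did not overlap either, with 58.4 to 81.8 in WT and 87.3 to 136 in Shank3-HT mice, while its Shank3-HM samples ran from 34.3 to 97.4. Non-overlap was met by 0.63% of all genes in that comparison. Pcdhga7 had 477 to 552 in WT and 382 to 538 in Shank3-HT mice (log2 difference -0.27 ± 0.09).

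Shank3-HM and WT cortex differed in 0 of 57 members, against 0.0121% of all genes, and 1 member, Pcdhgb2, had an unadjusted p under 0.05, against 5.49% of all genes. Its values were 295 to 376 in WT and 256 to 350.0 in Shank3-HM mice (log2 difference -0.24 ± 0.10, adjusted p = 0.878). Pcdhga6 was next, with a difference of -0.19 ± 0.09. Between Shank3-HM and Shank3-HT cortex 0 of 57 were called, against 0.00606% of all genes, with 1 member and 4.87% of all genes at an unadjusted p under 0.05. The lowest p were those of Pcdha11 (-0.41 ± 0.16) and Pcdhb8 (-0.49 ± 0.23). For Pcdhb8 the difference was -0.23 without Shank3-HM replicate 3, which held 34.3. Pcdha11, at 167 to 269.6 in WT, 196 to 345 in Shank3-HT and 149 to 206 in Shank3-HM mice, overlapped in all pairs. Shank3-HM replicate 2, the cortex sample with striatal markers, had the lowest alpha sum of its group at 4239.9 against 5047 to 5625 in the other 4, and without it 0 members were called as well. No member was without overlap between Shank3-HM and WT cortex, where 0.8% of all genes were (0.388% higher, 0.412% lower), or between Shank3-HM and Shank3-HT cortex, where 0.727% were (0.376% higher, 0.351% lower).

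In the hippocampus 0 of 57 members were called in each of the 3 comparisons, against 0.00603% of all genes in each. At an unadjusted p under 0.05 there were 2 members between Shank3-HT and WT, 0 between Shank3-HM and WT and 1 between the mutants, against 5.26%, 4.73% and 2.09% of all genes. The log2 differences from WT had medians of 0.07 in Shank3-HT mice and 0.06 in Shank3-HM mice, where all genes had 0.0056 and 0.0037. Without the libraries numbered 1 the members' medians were 0.03 and -0.02, so the sign in Shank3-HM mice changed. These medians carry no test, and the cause of the change was not tested. Pcdhb8 stood at 38.9 to 70.4 in WT and 60.9 to 100.1 in Shank3-HT mice (0.47 ± 0.18), and Pcdha11 at 59.5 to 109 and 105 to 146 (0.46 ± 0.21), and both pairs of groups overlapped. Pcdhga9 was at 258, 312, 318, 274 and 279.6 in WT and at 343, 386, 336, 321 and 351 in Shank3-HM mice, which did not overlap (0.27 ± 0.13, adjusted p = 0.920), as in 0.736% of all genes. Its Shank3-HT samples (254 to 459) covered both. Pcdhgb7 differed by 0.20 ± 0.10 between Shank3-HM and WT. Between Shank3-HM and Shank3-HT the lowest p were those of Pcdhb6 (0.33 ± 0.14) and Pcdhga5 (-0.22 ± 0.11). Pcdhb2 did not overlap between Shank3-HM (50.2 to 58.7) and Shank3-HT mice (61.7 to 77.2), as in 0.447% of all genes. Between Shank3-HT and WT hippocampus no member was without overlap, against 0.797% of all genes (0.447% higher, 0.35% lower). Choroid plexus markers varied widely among these samples, from 1272 to 122680 in sum, and their part was not tested.

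In the striatum 0 of 57 members were called between Shank3-HT and WT, against 0.00607% of all genes, 0 between Shank3-HM and WT, against 0.182%, and 0 between Shank3-HM and Shank3-HT, against 0.14%. At an unadjusted p under 0.05 there were 4, 1 and 5 members, against 7.43%, 7.43% and 6.49% of all genes. In none of the 3 comparisons was a member without overlap, where 0.971% (0.552% higher, 0.419% lower), 1.86% and 1.27% of all genes were. In the beta cluster 20 of 21 genes had a log2 difference below 0 in Shank3-HT mice and 17 in Shank3-HM mice. Both genotypes were compared with the same WT samples. Medians of the beta genes were -0.14 and -0.08, where all genes had -0.01 and 0.00. Over all 57 members the medians were -0.11 and -0.03, so the lean in Shank3-HT mice was not confined to the beta cluster. The beta sums were 4076 to 4850.2 in WT, 3854 to 4607 in Shank3-HT and 3947 to 4692 in Shank3-HM mice and overlapped. The oligodendrocyte marker Mbp held 89132 to 114023, 94782 to 159497 and 95493 to 144098 in the same groups, and its part in the lean was not tested. Shank3-HT replicate 5 had a choroid plexus marker sum of 68145 against 447 to 1535 in the other 4 samples of its group. Without it 20 of 21 beta genes were still below 0, with a median of -0.12.

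Pcdhb21 was the nearest to a call in the Shank3-HT striatum, with 105, 117, 130.3, 106 and 113 in WT and 79.3, 75.9, 80.6, 117 and 84.2 in Shank3-HT mice (-0.40 ± 0.13, adjusted p = 0.632). A single Shank3-HT sample lay within the WT range and the other 4 below it. Pcdhb12 was at 147 to 177 and 119.7 to 149 (-0.28 ± 0.11). In Shank3-HM mice Pcdhb14 was at 308 to 386 against 373 to 427 in WT (-0.22 ± 0.08, adjusted p = 0.537), and Pcdhga4 at 515 to 669 against 598 to 782 (-0.19 ± 0.09). Between Shank3-HM and Shank3-HT, Pcdhgc5 differed by 0.18 ± 0.07 and Pcdhgb1 by 0.23 ± 0.09.

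Whether the genotype differences varied between regions was tested directly. Over the 6 such comparisons, 0 of 342 tests of members passed, with a smallest adjusted p of 0.749, and 11 had an unadjusted p under 0.05, against 3.35% to 5.6% of all genes by comparison. Of all genes, 0% passed in 4 of these comparisons, 0.0539% for the Shank3-HM effect in cortex minus striatum and 0.0718% for that in hippocampus minus striatum.

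Genes that act on or with the clustered protocadherins were set beside them. None of 20 genes of transcription and chromatin at the locus was called between genotypes in any region. Among them are Ctcf and the cohesin subunits, which loop the promoters to distant enhancers. Only 0 to 0.182% of all genes were called in the genotype comparisons, so a count of 0 in a short list says little. Between WT regions 13 of the 20 were called for cortex and striatum, 2 higher in the cortex and 11 lower, with a median of -0.21, where 59.3% of all genes were called and their median was -0.01. Ctcf was lower in the cortex than in the striatum by 0.20 on the log2 scale, Stag2 by 0.52 and Dnmt3a, a DNA methyltransferase, by 0.43, and Dnmt1 was higher by 0.26. For cortex and hippocampus 2 were higher and 6 lower, against 46.6% of all genes called, and for hippocampus and striatum 0 were higher and 9 lower, against 56.1%.

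In the genotype comparisons 0 of 22 genes for binding partners, signalling and processing were called, against 0 to 0.182% of all genes. The 22 include the kinases Ptk2 and Ptk2b and the WAVE complex genes. Between WT cortex and striatum 4 were higher and 10 lower, between cortex and hippocampus 6 and 10, and between hippocampus and striatum 8 and 7, where 59.3%, 46.6% and 56.1% of all genes were called. Ptk2b, for example, was lower in the cortex than in the hippocampus, with a log2 difference of -1.01 ± 0.05. The non-clustered protocadherins, which are not members of the 3 clusters, had 11 of 12 genes at a testable level. None was called between genotypes, against 0 to 0.182% of all genes. Between WT cortex and striatum 8 were higher in the cortex and 2 lower, with a median of 0.76, where 29.3% of all genes were higher and 30% lower with a median of -0.01. Between cortex and hippocampus 6 were higher and 4 lower (median 0.28), and between hippocampus and striatum 5 and 4 (median -0.12). Pcdh20 had the widest region difference, at 4.02 for hippocampus minus striatum.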

How the data were processed

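The authors quantified reads with Salmon 1.1.0 on GRCm38 and normalized them with DESeq2 1.26.0 in R 3.6.2, per the submitters' notes. The deposited values are a signal: normalized counts with decimals per gene and sample. Whole reads could not be recovered (12.2 to 27.7% of tested values were whole within 0.05 at the best step, 10% by chance), so depth is unknown. Columns headed KI were taken as the Shank3-HM samples. Symbols came from GENCODE M21. Tests covered genes whose mean reached 10, taken per region (15 samples) for genotype comparisons and over all 45 samples for region comparisons and interactions. They were run on log2(value + 1), which understates changes of low genes, with limma 3.58.1 in R 4.3.3 with an intensity trend. Benjamini-Hochberg adjustment ran over all genes at a threshold of 0.05. Levels per kilobase used the longest coding transcript. The fit was tested on simulated data.

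The members and gene lists were chosen with earlier results of these data known. Named genes were the C types, the 3 highest and 2 lowest of each cluster by WT mean, called members or the 2 with the smallest p per genotype comparison, the 3 of each cluster with the smallest adjusted p per WT region comparison, Pcdha11, and members whose mutant samples did not overlap WT. Others were named after their values were seen. Alternatives covered trend, normalization, filter, pseudocount, samples fitted, block and single samples left out. Some marker genes are not reported here.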

Additional observations from a re-analysis of the deposited data

Results flagged for a closer look

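Of 360 groups of 5 samples tested among the named genes and cluster sums, 24 held a sample set apart from the other 4 by Dixon's criterion, and chance alone flags about 1 in 20 groups. In the hippocampus of WT mice the replicate 1 library gave the low Pcdhgc3 value (2472 normalized counts), the high Pcdhgc4 value (7302), the low Pcdhb2 value (26.5), the low Pcdhgb2 value (264) and the low beta sum (2919). In the hippocampus of Shank3-HT mice Pcdhgc5 was low at 3156, Pcdha7 was low at 106, Pcdhb2 was high at 77.2 and the beta sum was high at 3751. Pcdhga7 was high at 508 in the hippocampus of Shank3-HM mice.

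In the cortex Pcdha8 was low at 5.01 in WT and at 5.99 in Shank3-HT mice. Also in Shank3-HT cortex, Pcdhga7 was high at 538, Pcdhb8 was high at 136 and Pcdhga8 was low at 291. Pcdha4 was high at 460.0 in Shank3-HM cortex. In the WT striatum Pcdhb6 was high at 276, Pcdhb2 was low at 31.5 and Pcdhgb7 was low at 589.9. In the striatum of Shank3-HT mice Pcdhga6 was high at 1763 and Pcdhb21 was high at 117. In that of Shank3-HM mice Pcdhgb8 was low at 45.9, Pcdhgb4 was high at 357 and Pcdha11 was high at 124.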

How the results depend on the processing

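The number of members called stayed within 1.5 times the reported count under every alternative with 1 exception: with the 3 genotypes averaged, 35 members were called between cortex and hippocampus against 23. With single samples left out, the counts ran from 21 to 25 between WT cortex and hippocampus, 37 to 40 between cortex and striatum and 32 to 36 between hippocampus and striatum, and were 0 in every genotype comparison and interaction. Among the log2 differences of named genes, those that changed sign had not passed the test. Pcdhgc3 between WT cortex and hippocampus ran from -0.16 to 0.018 with single samples left out, the highest being without cortex replicate 1. Pcdha11 between hippocampus and striatum became 0.10 with the 3 genotypes averaged, 0.27 in Shank3-HT mice and 0.21 in Shank3-HM mice. Pcdhgc5 between hippocampus and striatum became 0.00051 in Shank3-HT mice. The cause was not tested. The comparisons within mutant mice and without libraries numbered 1 were chosen after seeing the data.

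Same-numbered samples did not deviate together throughout: their correlations ran from -0.12 to 0.15 between genotypes of a region and from -0.10 to 0.23 between regions of a genotype, and 31 of 45 samples correlated best with their own number in other regions. Among other genotypes of a region it was 12 of 45, where an even share over the 5 numbers is 9. All correlations of a number exceeded 0.1 between regions for WT 2, Shank3-HT 1 and Shank3-HM 1, but not for every number, and the labels state no pairing. The samples were therefore not treated as paired, and the count over regions is a hint from the data that numbers may mark something shared there. With the replicate number as a block, 24, 41 and 37 members were called between the WT regions and 0 between genotypes. Without counts, the depth behind low members such as Pcdha8 cannot be stated.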
